A study of Mus musculus with 26 samples.

Results

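Germline-derived pluripotent stem cells (gPSC) were compared with the germline stem cells (GSC) from which they came. The comparison was chosen by the array titles alone and covers 12 of the 26 arrays of the series, or 6 of its 13 cell lines. The 8 gPSC arrays came from 4 clones, named gPSC[GSCneonatal]#1, gPSC[GSCneonatal]#2, gPSC[GSCadult]#1 and gPSC[GSCadult]#2. They are called here neonatal clone 1, neonatal clone 2, adult clone 1 and adult clone 2. The 4 GSC arrays came from the lines GSC[neonatal] and GSC[adult], whose labels give day 10 and day 40. All 6 lines carry the strain label OG2, and the labels mark the gPSC as pluripotent and the GSC as not pluripotent. Strain OG2 bears a green fluorescent reporter driven by sequences of the Pou5f1 gene. The labels record no treatment for either kind of line. The remaining 14 arrays hold induced pluripotent stem cell (iPSC) lines made from GSC or from fibroblasts, embryonic stem cells (ESC) and mouse embryonic fibroblasts (MEF).

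GSC are cultured descendants of spermatogonial stem cells, the cells that maintain sperm production in the testis. They depend on the growth factor GDNF, which acts through the receptors RET and GFRA1, and they express many genes of germ-cell RNA control. In mouse, GSC cultures can give rise, without introduced reprogramming genes, to colonies that resemble ESC, and these colonies are the gPSC. ESC-like cells are held in their state by a network of transcription factors around POU5F1, SOX2 and NANOG.

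Each line was profiled on 2 bead arrays, whose levels are given as background-corrected, quantile-normalised log2 signal, averaged over the arrays of a line. A level is comparable between lines for the same probe and not between genes. A probe was called detected at a detection p-value under 0.01. Each gPSC line is 1 clone and each age is represented by 1 GSC line, so the age of origin and the parent line cannot be told apart. The arrays of a line are called biological replicates in the labels without mention of separate cultures, and 0 to 10 genes differed at least 2-fold between the arrays of any line. Between 10469 and 12081 probes of 25697 were detected on the 12 arrays. Tests were therefore made over the 6 line means, and p-values measure the spread between these lines.

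Features of 3 clones bear on the results. Neonatal clone 2 correlated with the fibroblast-derived iPSC line at r = 0.9973 across 9840 genes over line means. Between these line means 11 genes differed at least 2-fold, beside 0 to 10 between the single arrays of 1 line. Between single arrays of the 2 lines the mean r was 0.9952. It was 0.9961 between the arrays of neonatal clone 2 and 0.9954 between those of the iPSC line. Among the clones, neonatal clone 2 differed at least 2-fold from adult clone 1 in 335 genes, from adult clone 2 in 431 and from neonatal clone 1, which shares its parent by label, in 1025. Neonatal clone 1 differed from adult clone 1 in 510 genes and from adult clone 2 in 1460, and the adult clones differed from each other in 934. Adult clone 2 had a summed signal over 37 mesenchymal and matrix genes of 42190, against 10280 to 16380 in the other clones, 10050 and 6997 in the neonatal and adult GSC lines, and 133700 in MEF. Its r with MEF was 0.8565, the highest of the 4 clones. Neonatal clone 2, for its likeness to the iPSC line, and adult clone 2, for its matrix signal, were left out together as an alternative, whose counts are given in parentheses below as "without both".

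The first question was how far the gPSC clones differed from their parents as a group. Of 9840 genes tested, 3507 passed an adjusted p of 0.05 (35.6%) in limma with origin as a covariate. Of these, 1485 (15.1%) were higher in gPSC and 2022 (20.5%) were lower. The change was at least 2-fold for 1018 genes (10.3%) that rose and 1167 (11.9%) that fell. It was at least 10-fold for 82 genes that rose and 53 that fell. In 2899 genes (29.5%) all 4 clones lay above both GSC lines, and in 3267 (33.2%) they lay below both. In 278 of the genes that rose the GSC signal was undetected on every GSC array, and in 387 of those that fell the gPSC signal was undetected on every gPSC array. Without both, 3844 genes passed (39.1%), 1781 of them higher and 2063 lower, and 3080 of the 3844 had also passed with all lines. With 1 GSC line left out, the difference rests on the clones of the other origin and their parent alone. That fit has fewer residual degrees of freedom, so its number of calls is not comparable and is not given. For these settings the medians of lists are given below. Every gene called with all lines kept its direction when either GSC line was left out. The kept direction was nearly given by the calls and adds little. All 4 clones lay above both parents in 1485 of the 1485 genes called higher, and below both in 2021 of the 2022 called lower. For a group at background on all of its arrays, a fold change is given as a lower limit against the arrays' detection floor.

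**Figure D1:**
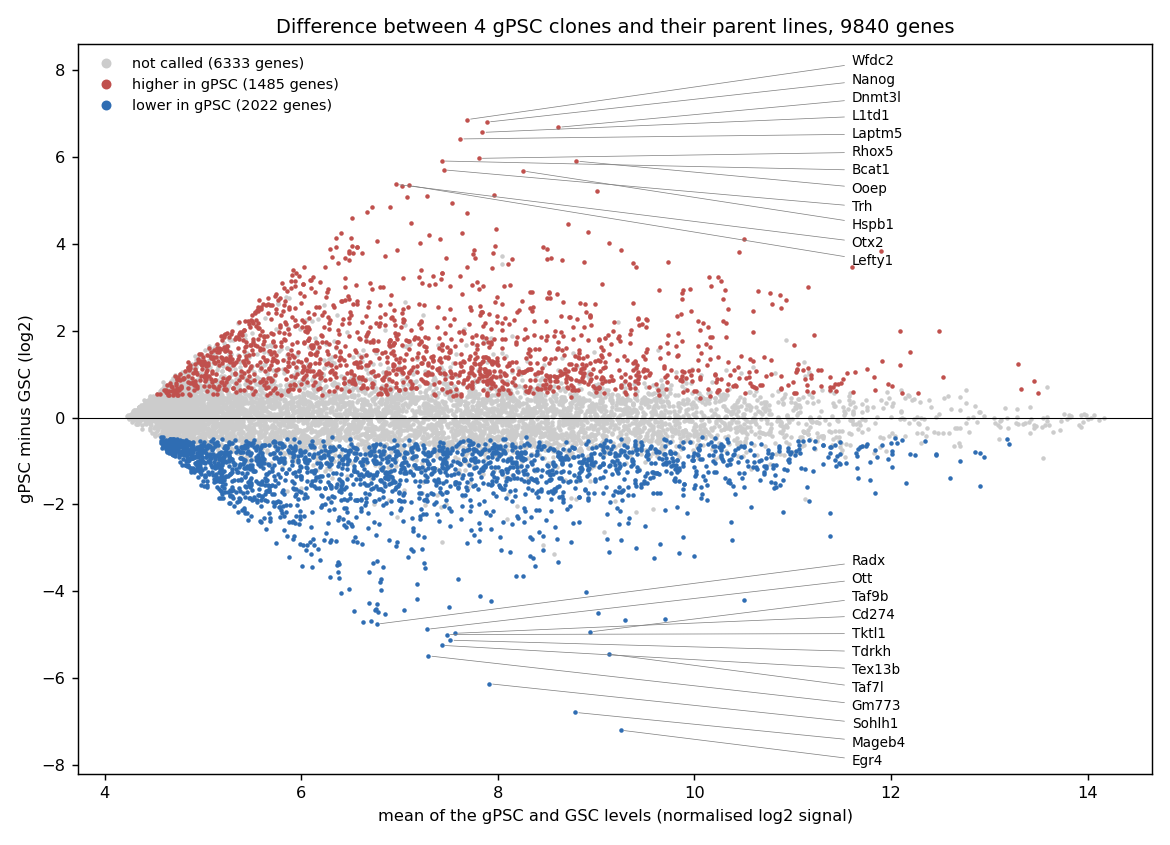
Difference between gPSC and GSC (log2, y axis) against the mean of the 2 levels (normalised log2 signal, x axis) for 9840 genes, with 1485 genes called higher in red, 2022 called lower in blue and the rest grey. The 24 named genes are the 12 largest called differences in each direction that separate all clones from both parents; the sloping edges are genes at background on one side.

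The markers of the 2 cell states were separated between all clones and both parents. Nanog, a core pluripotency transcription factor, stood at 11.94, 10.94, 11.50 and 10.79 in neonatal clones 1 and 2 and adult clones 1 and 2, against 4.45 and 4.53 in the neonatal and adult GSC lines. It was undetected on all 4 GSC arrays and at least 84.5-fold higher in gPSC (6.80 ± 0.36 on the log2 scale, SE; adjusted p = 0.00078 in limma). Sox2, the partner of POU5F1 on DNA, stood at 9.08, 8.16, 8.72 and 8.18 in the clones, against 4.58 and 4.63 in GSC. Sox2 was at least 12.5-fold higher in gPSC (adjusted p = 0.00165 in limma). Otx2, a factor of the epiblast and anterior brain, stood at 10.24, 9.41, 9.89 and 9.05 in the clones, against 4.27 and 4.29 in GSC, and was at least 27.1-fold higher (adjusted p = 0.00109 in limma). In bulk samples, fewer expressing cells and less RNA per cell cannot be told apart.

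Pou5f1, which encodes OCT4, was present in GSC and higher still in gPSC. Its levels were 11.68, 11.84, 11.55 and 12.05 in the clones, against 7.94 and 9.74 in the neonatal and adult GSC lines. The groups did not overlap, and the difference was 2.94 ± 0.43 (log2, SE; 7.68-fold, adjusted p = 0.00683 in limma). The parents differed from each other by more than the clones did. Klf4, a further reprogramming factor, stood at 9.58, 8.70, 9.48 and 9.15 in the clones, against 8.80 and 8.65 in GSC. Klf4 overlapped between the groups and did not pass the test (0.50 ± 0.29, adjusted p = 0.231 in limma).

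Ret and Egr4 marked the GSC. Ret, the signalling receptor for GDNF, stood at 4.32, 4.30, 4.34 and 4.25 in the clones, against 8.99 and 8.54 in GSC. It was undetected on all 8 gPSC arrays and at least 13.2-fold lower in gPSC (adjusted p = 0.000423 in limma). Egr4, an early growth response transcription factor required for male fertility in mouse, stood at 4.25, 6.47, 6.62 and 5.28 in the clones, against 12.88 and 12.81 in GSC. The difference was -7.20 ± 0.72 (log2, SE), or 147-fold lower in gPSC (adjusted p = 0.00266 in limma), the largest difference of all 9840 genes. Neonatal clone 1 was lowest for Egr4, and the 4 clones spanned 2.4 log2 units. Zbtb16, another spermatogonial marker, is not on the array, and Kit did not pass the detection filter.

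**Figure D2:**
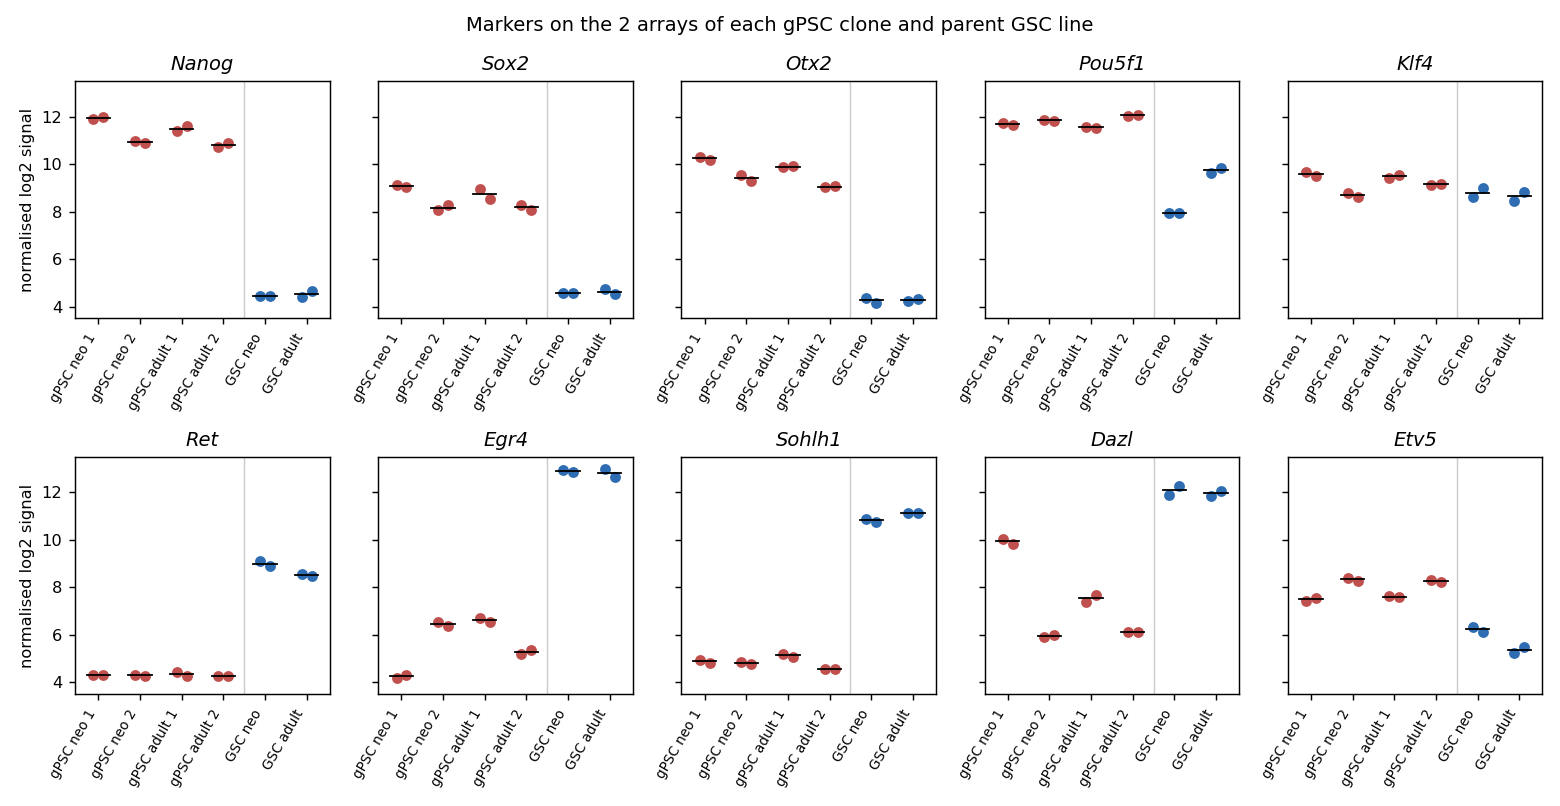
Normalised log2 signal (y axis) of 10 markers on each of the 2 arrays (points) of 4 gPSC clones (red, left) and 2 GSC lines (blue, right), with the line mean as a bar. Nanog, Sox2 and Otx2 sit at background in both GSC lines, Ret at background in all 4 clones, and Klf4 at 8.70 to 9.58 in the clones and 8.65 to 8.80 in GSC.

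The promoter windows of 3 strongly changed genes are shown, with a motif marked in each. Whether these motifs bear on the changes was not tested. Windows are the 250 bases before the gene start, read on the gene's strand from RefSeq on GRCm38.p6. Capitals mark the motif, searched on both strands. In Nanog (chr6:122707239-122707488, plus strand) the capitals are the octamer TTTGCAT, any base and the SOX motif ACAATG in a row, 75 bases before the start.
Nanog: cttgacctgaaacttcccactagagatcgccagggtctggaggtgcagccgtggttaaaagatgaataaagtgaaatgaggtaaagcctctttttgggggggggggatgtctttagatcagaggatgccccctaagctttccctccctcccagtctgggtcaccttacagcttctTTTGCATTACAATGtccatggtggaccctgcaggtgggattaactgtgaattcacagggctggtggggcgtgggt
In Sohlh1 (chr2:25847249-25847498, minus strand), which encodes a helix-loop-helix factor of spermatogonial differentiation, the capitals are the E-box CACGTG, found 231, 211 and 192 bases before the start.
Sohlh1: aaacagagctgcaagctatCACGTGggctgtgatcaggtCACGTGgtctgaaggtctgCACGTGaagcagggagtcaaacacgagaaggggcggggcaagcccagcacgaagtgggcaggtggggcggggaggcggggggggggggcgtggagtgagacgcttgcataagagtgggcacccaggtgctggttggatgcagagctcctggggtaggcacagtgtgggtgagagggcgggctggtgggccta
In Egr4 (chr6:85513590-85513839, minus strand) the capitals are the cAMP response element core TGACG, here on the opposite strand, 177 and 109 bases before the start.
Egr4: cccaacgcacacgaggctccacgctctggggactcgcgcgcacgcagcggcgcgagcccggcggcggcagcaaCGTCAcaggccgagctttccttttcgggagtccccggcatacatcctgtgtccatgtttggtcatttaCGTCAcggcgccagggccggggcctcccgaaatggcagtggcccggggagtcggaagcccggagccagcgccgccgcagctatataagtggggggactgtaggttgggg

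The joined motif occurred in 2 of 32851 promoter windows (0.00609%), both of them overlapping windows of Nanog. The E-box occurred in 6.02% of all windows, and TGACG in 17.8%. Among genes with a promoter entry, the E-box stood in 9.38% of those higher in gPSC, 12.6% of those lower and 9.51% of those not called. TGACG stood in 28.3% of the genes higher, 32.4% of those lower and 29.7% of those not called. These matches describe letters and not binding.

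Of 31 core and naive pluripotency genes tested, 20 rose and 1 fell (24 and 1 without both), with a median difference of 2.39 log2 against 0.0023 over all genes. The median was 2.40 without GSC[neonatal] and 1.98 without GSC[adult]. Esrrb, an orphan nuclear receptor of the naive state, stood at 11.83, 11.22, 12.08 and 11.30 in the clones, against 6.29 and 6.52 in GSC (36.9-fold higher, adjusted p = 0.000882 in limma). Gdf3, a TGF-beta family ligand of ESC, was at least 27.9-fold higher, and L1td1, an RNA-binding protein of pluripotent cells, at least 75.4-fold higher. Klf5 was 19.3-fold higher in gPSC. Stat3, which carries the LIF signal, was the member that fell, with 8.57, 9.25, 9.42 and 9.71 in the clones against 10.91 and 10.65 in GSC (-1.54 ± 0.31 log2, SE). The LIF receptor genes Lifr (0.06 log2) and Il6st (0.03) and the RNA-binding gene Lin28a (-0.05) did not pass the test.

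Of 12 primed epiblast genes, which mark the later, post-implantation state, 3 rose and 2 fell (3 and 2 without both), with a median of -0.14. These and all later list counts from all lines stand beside 15.1% higher and 20.5% lower over all genes, and neither primed share lay far from them. List counts without both stand beside 1781 genes higher and 2063 lower of 9840 in that setting, or 39.1% called. Otx2 was the largest, and Zic2, a zinc finger factor of the epiblast, was at least 3.21-fold higher. Dnmt3b, a de novo DNA methyltransferase, was 1.79 log2 higher without passing (adjusted p = 0.121 in limma), with clone differences from 0.28 to 3.04. Fgf5, the standard primed marker, was 1.59 log2 higher without passing (adjusted p = 0.191 in limma).

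The Nodal pathway, a TGF-beta family signal that ESC produce and also restrain, rose in its ligands and inhibitors. Of 11 genes tested, 5 rose and 2 fell (5 and 2 without both), with a median of 1.39. The shares over all genes were 15.1% higher and 20.5% lower. The ligand Nodal stood at 7.36, 8.27, 7.30 and 7.78 in the clones, against 4.58 and 4.44 in GSC, at least 6.89-fold higher (adjusted p = 0.00247 in limma). The secreted inhibitors Lefty1 and Lefty2 were at least 29.4-fold and at least 21.6-fold higher. They are close paralogs, and sharing of signal between their probes was not tested. Smad3, an intracellular effector, fell by 0.79 log2. Foxh1, a DNA-binding partner of the SMAD proteins, was at least 1.75-fold higher.

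Lefty1 differed widely among the clones. It stood at 6.66 in neonatal clone 1, against 11.49 in neonatal clone 2, 10.94 in adult clone 1 and 9.99 in adult clone 2, with 4.44 and 4.41 in GSC. All clones lay above both parents. Tdgf1, the Nodal co-receptor also named Cripto, was read by 2 probes that disagreed. The probe used, which has the higher mean signal, stood at 4.28 and 4.39 in the neonatal clones and 10.33 and 9.25 in the adult clones, against 4.44 and 4.47 in GSC. That probe was undetected in the neonatal clones and not called overall (adjusted p = 0.154 in limma). The other probe was detected on all 8 gPSC arrays and no GSC array, at 6.78, 6.81, 7.17 and 6.16 in neonatal clones 1 and 2 and adult clones 1 and 2, against 4.24 and 4.24 in GSC. The division by origin was thus seen with 1 of the 2 probes.

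Of 18 FGF and ERK pathway genes, 5 rose and 1 fell (5 and 1 without both), with a median of 0.92. Beside this, 15.1% of all genes were higher and 20.5% lower. Fgf4, the FGF that ESC secrete, stood at 7.67, 6.36, 7.74 and 6.38 in the clones, against 4.25 and 4.32 in GSC (at least 4.43-fold higher). Dusp4, a phosphatase that restrains MAP kinases, was at least 3.09-fold higher. Etv5, a transcription factor that GDNF induces in GSC and that ESC also express, stood at 7.49, 8.33, 7.61 and 8.26 in the clones, against 6.23 and 5.35 in GSC. The groups did not overlap, and Etv5 was 4.39-fold higher in gPSC (adjusted p = 0.0107 in limma).

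Of 28 genes of GDNF signalling and spermatogonial self-renewal, 13 fell, 3 rose and 12 were not called (14 fell and 4 rose without both), with a median of -0.47. Among all genes 20.5% were lower and 15.1% higher. This median was -0.495 without GSC[neonatal] and -0.62 without GSC[adult]. The members that rose were Etv5, Utf1, a chromatin factor of ESC and undifferentiated spermatogonia, and Cdh1, which encodes E-cadherin. Utf1 stood at 9.82, 10.11, 10.01 and 10.05 in the clones, against 5.04 and 5.10 in GSC, 30.5-fold higher (adjusted p = 0.000423 in limma). Nanos2, an RNA-binding protein that keeps spermatogonial stem cells undifferentiated, stood at 4.42, 4.42, 4.60 and 4.40 in the clones, against 7.99 and 8.26 in GSC (at least 8.49-fold lower). Gfra1, the GDNF-binding co-receptor, was near background in both groups, at least 1.20-fold lower in gPSC (adjusted p = 0.0164 in limma). Bcl6b, Id4 and Foxo1, transcription factors of spermatogonial self-renewal, fell by 1.10, 1.18 and 1.93 log2. Among the surface protein genes Thy1 (0.35 log2), Itga6 (0.80), Itgb1 (0.01) and Cd9 (-0.09) did not pass.

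Of 23 germ-cell RNA-binding and differentiation genes, 16 fell and 1 rose (17 and 1 without both), with a median of -2.79. That median was -3.00 without GSC[neonatal] and -2.44 without GSC[adult]. Sohlh1 stood at 4.89, 4.81, 5.14 and 4.55 in the clones, against 10.82 and 11.13 in GSC, 69.9-fold lower (adjusted p = 0.000423 in limma). Dazl, an RNA-binding protein of germ cells, stood at 9.94, 5.93, 7.55 and 6.11 in the clones, against 12.08 and 11.96 in GSC. The 4 clones all lay below both parents but spanned 4.0 log2 units, with neonatal clone 1 the highest (24.9-fold lower on average, adjusted p = 0.0311 in limma). Ddx4, the Vasa RNA helicase, stood at 5.92, 4.94, 5.20 and 4.47 in the clones, against 7.87 and 8.14 in GSC (7.33-fold lower). The member that rose was Dppa3, a maternal factor that protects imprints and that ESC express, 8.13-fold higher in gPSC.

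The piRNA pathway, in which small RNAs and Tudor domain proteins silence transposons in germ cells, fell in 12 of 15 genes tested, with 1 that rose (12 and 1 without both) and a median of -2.79. Its median was -2.43 without GSC[neonatal] and -2.44 without GSC[adult]. Tdrkh, a mitochondrial Tudor protein needed for the trimming of piRNA precursors, stood at 5.36, 4.69, 5.33 and 4.45 in the clones, against 9.90 and 10.27 in GSC. It was 34.9-fold lower (adjusted p = 0.00112 in limma). Piwil2, a PIWI protein that binds piRNAs, stood at 7.94, 6.43, 6.98 and 6.21 in the clones, against 10.92 and 10.88 in GSC, 16.2-fold lower (adjusted p = 0.00427 in limma). Asz1 was 18.8-fold lower, Mov10l1, the helicase that loads piRNA precursors, 10.8-fold lower, and Piwil4 at least 6.22-fold lower. Tdrd12 (0.30 log2) and Rnf17 (-0.51) did not pass. The member that rose was Dnmt3l, a cofactor of DNA methylation that acts downstream of piRNAs in the male germ line and is expressed in ESC.

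Of 17 meiosis genes, 6 fell and 2 rose (8 and 3 without both), with a median of -0.56. Among all genes 20.5% were lower and 15.1% higher. Tex11, an X-linked gene of meiotic recombination, stood at 5.81, 5.79, 6.46 and 4.97 in the clones, against 9.87 in each GSC line, 17.3-fold lower (adjusted p = 0.00279 in limma). Stra8, the retinoic acid target that precedes meiosis, was 6.91-fold lower. Stag3, a meiotic cohesin subunit, stood at 8.47, 5.86, 8.06 and 5.65 in the clones, against 10.36 and 9.92 in GSC. It lay below both parents in every clone but did not pass (adjusted p = 0.0538 in limma). Sycp1, a structural protein of chromosome synapsis, was 5.05-fold lower. Meiosis genes had a median of -0.665 without GSC[neonatal] and -0.545 without GSC[adult].

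The levels reached in the clones were set beside those of the ESC line, which entered none of these tests. Of the genes called lower, the mean gPSC level lay within 1 log2 unit of ESC for 15 of 16 differentiation and RNA-binding genes, 12 of 12 piRNA genes, 12 of 13 self-renewal genes and 5 of 6 meiosis genes. Of the pluripotency genes called higher, 18 of 20 lay within 1 log2 unit of ESC. Of all genes tested, 5.17% and 6.26% lay at least 2-fold from ESC in neonatal clones 1 and 2. In adult clones 1 and 2 it was 2.46% and 11.9%. A level within 1 log2 unit of ESC was thus the usual case. Genes undetected in both, as Ret was, count as within, and a mean can hide spread. Dazl stood at 7.40 in ESC and from 5.93 to 9.94 in the clones. ESC is 1 line on 2 arrays, so this comparison is a description without a test.

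**Figure D3:**
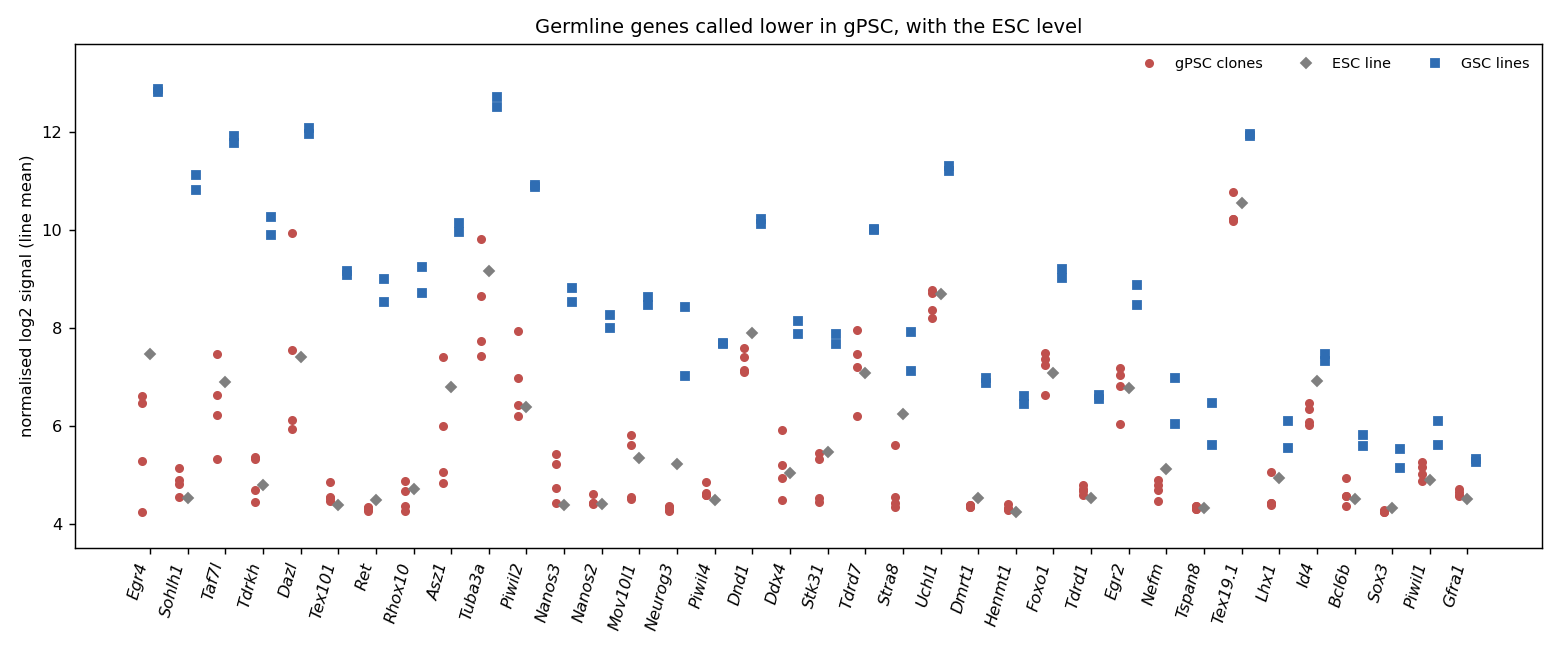
Normalised log2 signal (line means, y axis) of the 36 genes of the self-renewal, differentiation and piRNA lists that were called lower, for the 4 gPSC clones (red circles), the ESC line (grey diamond) and the 2 GSC lines (blue squares). Every gPSC circle lies below both GSC squares of its gene, and Dazl spreads from 5.93 to 9.94 over the clones.

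Of the 24 genes with the largest called differences, 11 were members of the gene lists. The 12 highest in gPSC were Wfdc2, Nanog, Dnmt3l, L1td1, Laptm5, Rhox5, Bcat1, Ooep, Trh, Hspb1, Otx2 and Lefty1, and 8 of them were undetected on every GSC array. Wfdc2, a secreted protease inhibitor of epithelia, stood at 11.47, 11.34, 11.12 and 10.53 in the clones, against 4.24 and 4.28 in GSC. It was at least 74.9-fold higher (adjusted p = 0.000423 in limma), although a second Wfdc2 probe gave a smaller difference of 3.58 log2. Dnmt3l stood at 12.31, 11.88, 12.10 and 11.53 in the clones, against 5.73 and 4.82 in GSC, 103-fold higher. Laptm5, a lysosomal membrane protein best known from blood cells, stood at 10.95, 10.86, 10.58 and 10.91 in the clones, against 4.37 and 4.45 in GSC (at least 61.2-fold higher). Bcat1, an enzyme of branched-chain amino acid breakdown, was 5.91 log2 higher by the probe used and 1.67 and 2.13 by others. Over all named genes, 46 further kept probes had the sign of the probe used, 37 within 1.5 log2 of it and 9 farther apart. The leukocyte marker Ptprc was undetected on all 12 arrays.

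The 12 lowest in gPSC were Egr4, Mageb4, Sohlh1, Gm773, Taf7l, Tex13b, Tdrkh, Tktl1, Cd274, Taf9b, Ott and Radx. Of these, 8 lie on the X chromosome, against 1 of the 12 highest. Mageb4, a germ-cell antigen of the MAGE family, stood at 6.45, 4.88, 5.59 and 4.66 in the clones, against 12.23 and 12.13 in GSC, 110-fold lower by the probe used (adjusted p = 0.00147 in limma), with a smaller fall by another. Second probes of Tex13b and Ott gave -3.17 and -2.69 log2, against -5.24 and -4.87 by those used. Taf7l, a germ-cell variant of a general transcription factor subunit, was 43.5-fold lower. Cd274, which encodes the immune checkpoint ligand PD-L1, stood at 5.11, 5.35, 4.85 and 5.01 in the clones, against 10.15 and 9.94 in GSC, 31.3-fold lower (adjusted p = 0.000423 in limma).

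Of 13 DNA methylation and demethylation genes, 6 rose and 0 fell (6 and 1 without both), with a median of 0.94. Besides Dnmt3l they included Gadd45a, a stress-response gene linked to demethylation (4.94-fold higher), and Apobec1, a cytidine deaminase (4.01-fold higher). The maintenance methyltransferase Dnmt1 (-0.58 log2) did not pass. Of 25 Polycomb and bivalent-domain genes, 7 rose and 6 fell (8 and 5 without both), beside 15.1% higher and 20.5% lower over all genes. Ezh2, the methyltransferase of Polycomb complex 2, stood at 10.65, 10.09, 10.14 and 9.81 in the clones, against 8.17 and 8.18 in GSC, 4-fold higher (adjusted p = 0.00392 in limma). Among the chromobox subunits of Polycomb complex 1, Cbx7 rose by 1.86 log2, while Cbx8 stood at 5.09, 4.34, 4.38 and 4.61 in the clones, against 8.25 and 8.05 in GSC (11.7-fold lower), and Cbx2 was 5.30-fold lower.

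Imprinted genes, which are expressed from 1 parental copy, did not share a direction. Of 16 paternally expressed genes 4 rose and 5 fell (4 and 5 without both), and of 13 maternally expressed genes 2 rose and 1 fell (4 and 1 without both). Beside these counts, 15.1% of all genes were higher and 20.5% lower. Snrpn, a paternally expressed splicing factor gene, stood at 11.52, 12.28, 11.73 and 11.83 in the clones, against 8.79 and 8.61 in GSC, 8.83-fold higher (adjusted p = 0.00154 in limma). Cdkn1c, a maternally expressed inhibitor of the cell cycle, stood at 7.08, 6.70, 6.94 and 7.09 in the clones, against 10.09 and 10.45 in GSC, 9.97-fold lower (adjusted p = 0.00078 in limma). Dlk1 and Nnat, paternally expressed, fell by 2.26 and 1.57 log2. Of the 5 Rhox homeobox genes tested, all X-linked, Rhox5 was 62.6-fold higher and Rhox10 21.6-fold lower, with the other three not called.

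Epithelial adhesion genes rose in 10 of 23 and fell in 3 (10 and 2 without both), with a median of 0.58. Their median was 0.537 without GSC[neonatal] and 0.952 without GSC[adult]. Cdh1 stood at 10.20, 10.21, 9.97 and 9.78 in the clones, against 5.25 and 5.41 in GSC, 26.2-fold higher (adjusted p = 0.000423 in limma). The tight junction claudins Cldn4 (at least 30.7-fold) and Cldn6 (17.2-fold) were higher too, whereas the junction gene Ocln was undetected in gPSC and at least 1.86-fold lower.

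Of 37 mesenchymal and matrix genes, 3 rose and 0 fell, with a median of 0.54. This count moved with adult clone 2: without it 3 rose and 3 fell with a median of 0.07, and without both 4 rose and 6 fell with a median of -0.16. The members that rose were Ccn1 and Ccn2, secreted targets of the YAP pathway, and Acta2, which encodes smooth muscle actin. Ccn2 stood at 11.69, 11.44, 11.52 and 11.45 in the clones, against 7.96 and 7.91 in GSC, 3.59 log2 higher (adjusted p = 0.000428 in limma). Lum, a matrix proteoglycan of fibroblasts, stood at 6.33, 9.13, 7.02 and 11.21 in the clones, against 6.37 and 5.73 in GSC, and was not called. In MEF, Lum stood at 5.21, under every clone and both GSC lines. By contrast, Col1a1, Col1a2, Col3a1 and Thy1 stood at 12.23, 9.60, 10.37 and 11.80 in MEF, above every clone and both GSC lines. Of the 6 feeder markers, Col1a1, Col3a1, Lum and Thy1 were detected in both groups, Col1a2 on 2 gPSC arrays and no GSC array, and Postn on no array of either group. Their part in the results was not tested.

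Of the testis somatic markers, Amh, Insl3, Star and Gata4 were undetected on all 12 arrays. Sox9 was detected on 1 GSC array and on no gPSC array. Testis somatic genes rose in 3 of 9 tested and fell in 1 (3 and 2 without both), with a median of 0.36. The member that fell with all lines was Wt1. Wt1, a gonadal and kidney transcription factor, stood at 4.52, 6.13, 5.25 and 6.17 in the clones, against 8.78 and 9.20 in GSC (11.1-fold lower, adjusted p = 0.00698 in limma). The 9 testis somatic genes tested summed to 493.9 to 1415 in the clones, against 761.6 and 871.9 in GSC. That sum holds Wt1 itself and Acta2, which is also on the matrix list. It is thus no measure of somatic cells apart from these genes. Whether somatic cells had a part in the Wt1 value was not tested. Of 21 mesoderm and endoderm genes 2 rose and 4 fell (3 and 5 without both), of 18 neural and ectoderm genes 4 rose and 3 fell (4 and 5 without both), and of 17 trophoblast genes 3 rose and 1 fell (5 and 1 without both). Over all genes the shares were 15.1% higher and 20.5% lower. Stmn2, a neuronal tubulin-binding protein, was at least 10.8-fold higher, and Tfap2c, shared by trophoblast, germ cells and naive cells, 8.39-fold higher.

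Genes of the 2-cell embryo, which a small share of ESC expresses at any time, rose in 6 of 9 and fell in 0 (6 and 1 without both), with a median of 1.48. Zscan4c, a telomere-linked zinc finger gene of that state, stood at 9.90, 9.35, 7.49 and 9.40 in the clones, against 4.33 and 4.28 in GSC, at least 17.7-fold higher (adjusted p = 0.00481 in limma). Tcstv3 and Tcstv1 were at least 7.30-fold and 4.84-fold higher. Zscan4 and Tcstv genes belong to families of near-identical copies, so these probes may read several copies. Leaving out either GSC line left 0 of these genes called.

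Of 21 glycolysis genes, 10 rose and 1 fell (15 and 1 without both), with a median of 1.29. Ldha, which makes lactate, stood at 13.04, 12.80, 12.77 and 12.03 in the clones, against 9.63 and 9.67 in GSC, 8.06-fold higher (adjusted p = 0.00215 in limma). Hk2, the hexokinase at the pathway's entry, was 7.74-fold higher and the glucose transporter gene Slc2a3 7.33-fold higher. Pfkl was 11.9-fold higher by the probe used and 0.47 log2 higher by another. Glycolysis genes had a median of 1.16 without GSC[neonatal] and 1.43 without GSC[adult]. Of 36 oxidative phosphorylation subunit genes 8 rose and 5 fell (9 and 4 without both), with a median of 0.11. These shares and those of the cholesterol genes below lay not far from 15.1% higher and 20.5% lower over all genes. Of 15 threonine, serine and folate metabolism genes 9 rose and 1 fell (10 and 1 without both), with a median of 0.69. Mthfd1, a folate enzyme, was 6.71-fold higher, Gldc, the glycine decarboxylase, 4.67-fold higher, and Shmt1, the cytosolic serine enzyme, fell by 1.13 log2. Of 17 cholesterol synthesis genes, 4 fell and 2 rose (3 and 2 without both), among them Srebf2, the regulator of the pathway, at 3.34-fold lower. Without GSC[neonatal] the medians of the oxidative phosphorylation, cholesterol, and threonine, serine and folate genes were 0.113, -0.419 and 0.882. Without GSC[adult] they were 0.0376, -0.158 and 0.819.

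Of 19 immediate-early genes, which growth factors induce within minutes, 9 fell, 1 rose and 9 were not called (10 fell and 2 rose without both), beside 20.5% lower over all genes, with a median of -0.85. This list had a median of -0.783 without GSC[neonatal] and -0.986 without GSC[adult]. Fos stood at 11.27, 9.24, 10.08 and 9.50 in the clones, against 12.91 and 12.57 in GSC, 6.58-fold lower (adjusted p = 0.0193 in limma). Egr2 fell by 1.90 log2, while Jun (0.82), Junb (-0.44) and Dusp1 (-0.33) did not pass. Hspa1a, a heat shock chaperone, was 5.31-fold lower. Of 18 surface receptor genes 3 fell and 0 rose (4 and 1 without both), and the 3 were Ret, Gfra1 and Igf1r. The share of this list that fell lay under the 20.5% over all genes.

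Of 18 genes of MHC class I antigen presentation, 6 fell and 0 rose (8 and 1 without both), with a median of -0.22. Tapbp, which loads peptides, stood at 5.22, 5.30, 5.41 and 5.89 in the clones, against 7.23 and 7.48 in GSC, 3.73-fold lower (adjusted p = 0.00255 in limma). The MHC heavy chains H2-K1 (0.09 log2) and H2-D1 (0.14) and B2m (-0.03) did not pass. Of 22 interferon-response genes 2 rose and 2 fell, but 3 rose and 8 fell without both. Medians of the MHC class I and interferon-response genes were -0.133 and 0.589 without GSC[neonatal], and -0.612 and 0.228 without GSC[adult]. Oasl2, an interferon-induced gene, stood at 4.44, 9.14, 7.69 and 9.77 in the clones, against 10.19 and 10.61 in GSC, and was not called. Of 25 cell cycle genes 5 rose and 2 fell (5 and 6 without both), including Ccne1, which encodes cyclin E1 (9.24-fold higher), and Cdkn1a, which encodes p21 (5.05-fold higher). Of 6 blood and macrophage genes only Laptm5 was called (1 higher and 2 lower without both). Beside the counts of these lists, 15.1% of all genes were higher and 20.5% lower.

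**Figure D4:**
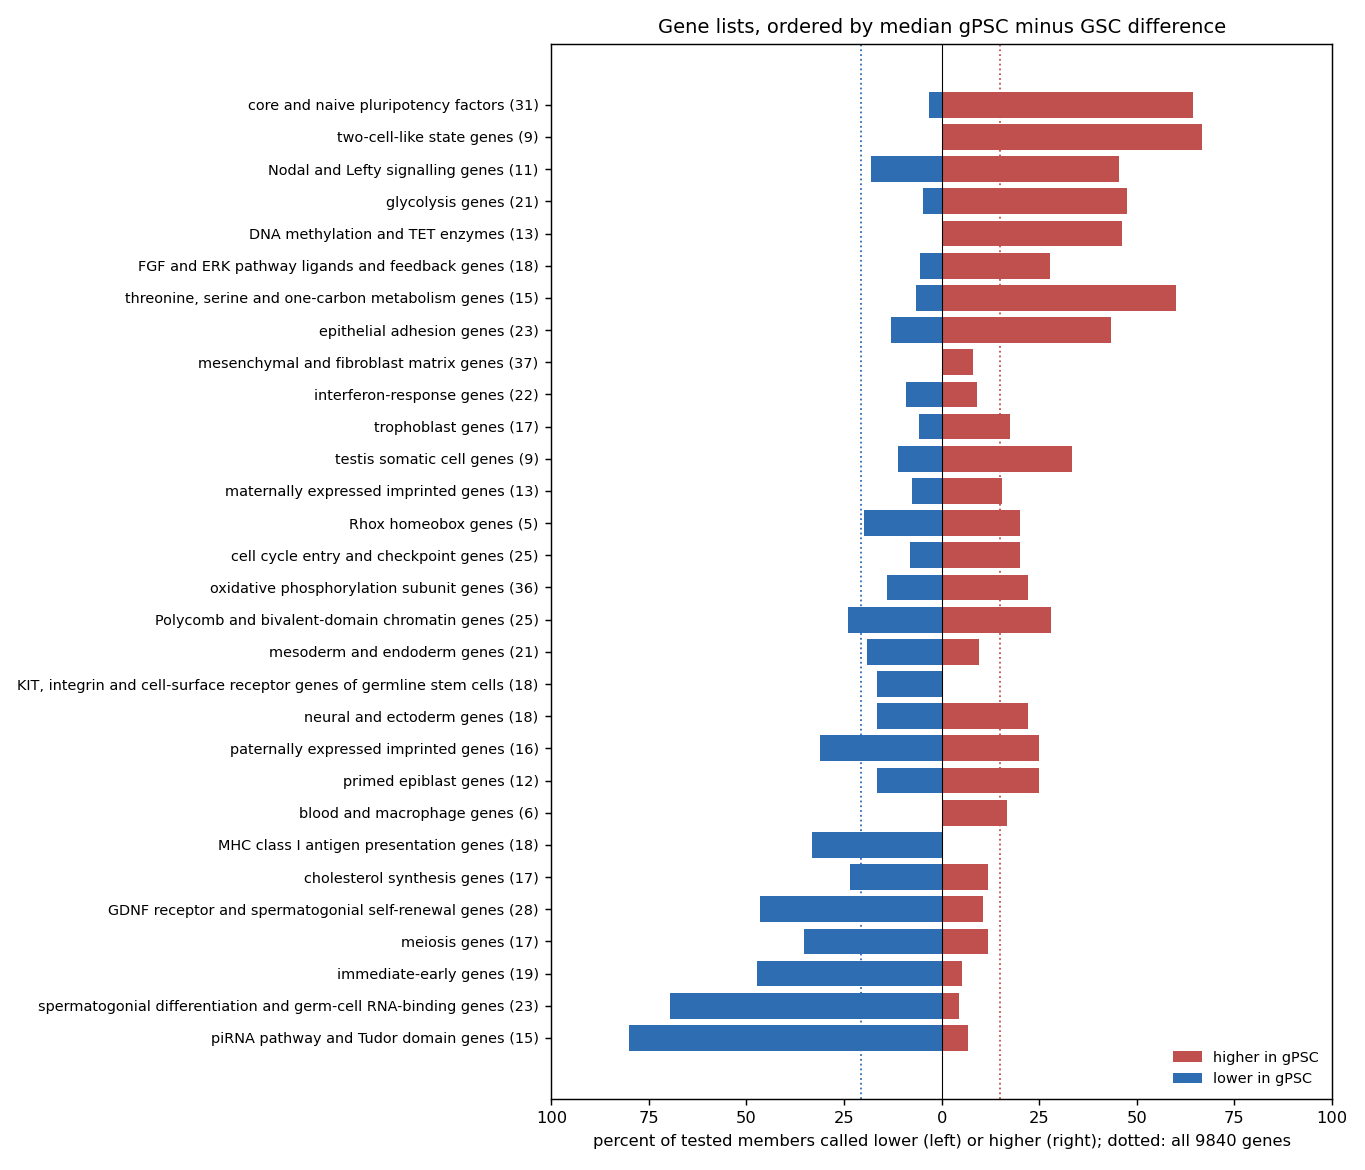
Percent of the tested members of 30 gene lists called higher (red, right) or lower (blue, left) in gPSC than in GSC, ordered by the median difference, with the number tested in brackets. Dotted lines mark the shares over all 9840 genes, 15.1% higher and 20.5% lower; the pluripotency list reaches 20 of 31 higher and the piRNA list 12 of 15 lower.

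The second question was whether conversion changed the same genes in the 2 origins. In the neonatal comparison 2035 genes passed (20.7%), of which 876 rose (8.9%) and 1159 fell (11.8%). In the adult comparison 2012 genes passed (20.4%), of which 826 rose (8.39%) and 1186 fell (12.1%). These tests used 2 clones and 1 parent line each, with the spread of the iPSC clones from GSC included in the fit, and the lone parent was assumed to vary as the clones do. Called in both were 1633 genes, 80.2% of the neonatal and 81.2% of the adult calls, and 1632 of them had the same sign. The exception was Tma7. Over all genes the differences had r = 0.923, and 86.4% had the same sign, with 82% among genes called in neither. Genes are not independent replicates, and both comparisons share 1 estimate of spread. Without both, 1923 genes passed in the neonatal and 1486 in the adult comparison. The neonatal count was 1346 without neonatal clone 1, and the adult count 1243 without adult clone 2.

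The test of the difference between the origins itself called 0 genes (0%), and 67 genes had an unadjusted p under 0.05. The probe used for Tdgf1 was called in the same contrast when limma was run on single arrays with the line as a random block (5.42 ± 0.61 log2, adjusted p = 0.000238). Its difference from the parent was -0.10 log2 in the neonatal and 5.32 in the adult comparison, while the other Tdgf1 probe was detected in all 4 clones and in neither parent. Tma7, a small translation-linked gene, stood at 4.57 and 4.65 in the neonatal clones against 5.36 in their parent, and at 7.10 and 7.06 in the adult clones against 5.27 in theirs. Pou5f1 rose by 3.82 log2 in the neonatal and 2.06 in the adult comparison, with the clones alike and the adult parent higher. Neurog3, a factor of differentiating spermatogonia, was undetected in all clones and stood at 7.01 in GSC[neonatal] and 8.43 in GSC[adult]. Lor and Afp had the same form, with low levels in all clones and a higher level in the adult parent.

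**Figure D5:**
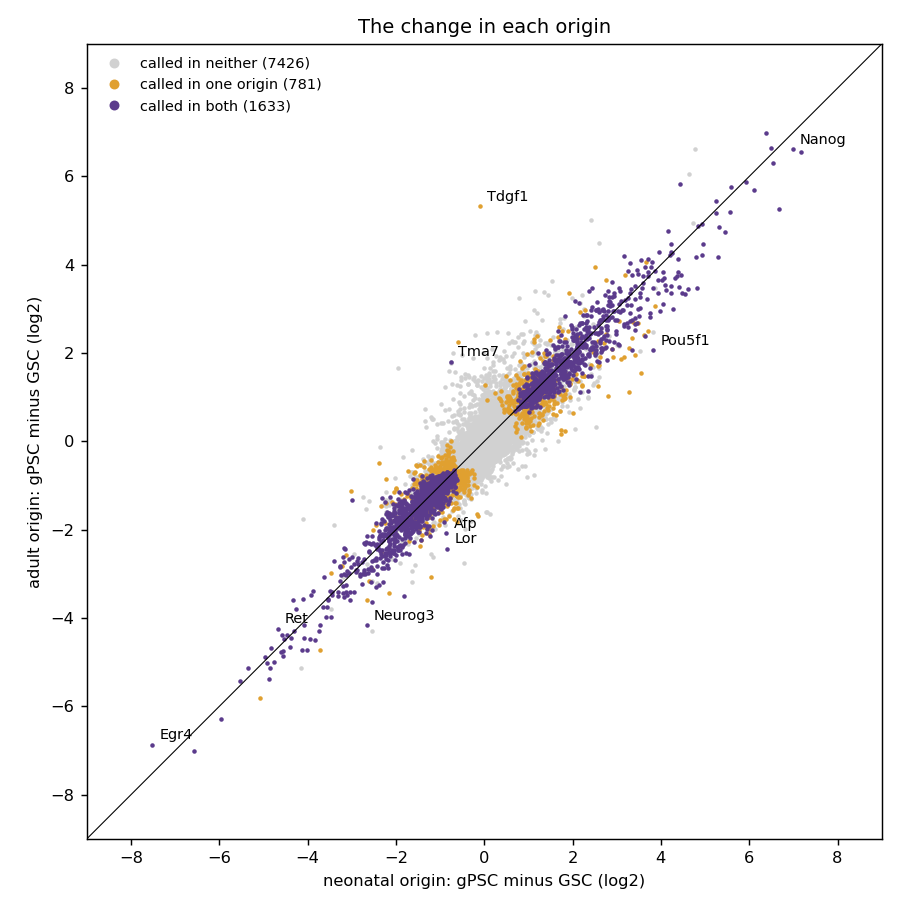
Difference from the parent line in the adult origin (log2, y axis) against the neonatal origin (log2, x axis) for 9840 genes, with 1633 called in both (purple), 781 in one (orange) and 7426 in neither (grey) and the line of equality in black. Nanog, Egr4 and Ret lie near the line, and Tdgf1, by the probe used, lies apart at -0.10 and 5.32.

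The third question was how far single clones departed from their parent. The number of genes at least 2-fold from the parent was 2874 in neonatal clone 1, 2651 in neonatal clone 2, 2513 in adult clone 1 and 3052 in adult clone 2. In all 4 clones 679 genes were at least 2-fold higher and 729 at least 2-fold lower than the parent. A further 1465 genes reached 2-fold in 1 clone only, and 92 were 2-fold higher in some clones and 2-fold lower in others. A single clone has no replicate of lines, so these counts carry no test.

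The called genes with the widest range over the clones were Trh, Lefty1, Dazl, Pygl and Aire. Trh, the thyrotropin-releasing hormone gene, stood at 6.64, 11.94, 11.26 and 11.36 in the clones, against 4.52 and 4.68 in GSC. Pygl, liver glycogen phosphorylase, stood at 9.10, 5.73, 6.15 and 5.69 in the clones, against 9.97 and 10.22 in GSC. For Trh, Lefty1, Dazl and Pygl it was neonatal clone 1 that lay nearest its parent. Aire, the autoimmune regulator, stood at 9.11, 7.20, 8.08 and 5.50 in the clones, against 4.34 and 4.31 in GSC, and there neonatal clone 1 lay farthest.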

How the data were processed

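RNA of 13 mouse lines was measured on Illumina MouseRef bead arrays, 2 arrays a line. The authors deposited a summarised bead intensity for each of 25697 probes, with no normalisation in that table, and BeadStudio 3.2 is named in the submitters' processing notes. A detection p-value per probe, a rank among negative controls, was deposited beside each intensity per the file headers. The authors also deposited normalised log2 values, which share 1 distribution over all arrays, and the notes name RMA and lumi without their role. Those log2 values served as an alternative.

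Intensities were background-corrected with normexp from the detection p-values, offset 16, and quantile-normalised (neqc, limma 3.58.1, R 4.3.3). Of the probes, 23978 had 1 gene symbol and 1719 none, and 14517 detected at p under 0.01 on at least 2 of the 26 arrays were kept. For each gene the kept probe with the highest mean over all arrays was used, giving 9840 genes. The 2 arrays of a line were averaged. The gPSC minus GSC difference was fitted with origin as covariate over 6 line means (3 residual degrees of freedom). The comparisons within each origin were fitted over 10 line means, those of iPSC made from GSC included (4 residual degrees of freedom). Moderated tests of limma were adjusted by Benjamini-Hochberg over all genes, with a threshold of 0.05, and the fit was tested on simulated line means. The number of lines limits the precision. No chip or scan position is given in the sources used here.

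The members and the 30 gene lists were chosen with earlier results of these data known. The text names the 12 largest called differences in each direction that separate all clones from both parents, up to 4 members a list with the largest difference, a set of always-reported markers, the 6 genes with the smallest p for the difference between origins, and the 5 called genes with the widest clone range. Further list members were named after their values were seen, to show what did not pass or moved the other way. Alternatives changed the background correction, normalisation, filter, probe choice, model and lines used.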

Additional observations from a re-analysis of the deposited data

Results flagged for a closer look

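Among 137 named genes, 6 had 1 gPSC clone whose gap to the nearest other clone exceeded Dixon's critical value for 4 samples. Chance flags about 1 in 20 groups, so this number is no more than chance would give. In addition, 5 of the named genes, Trh and Pygl among them, had been chosen for a wide clone range. The values below are thus a description. In neonatal clone 1, Trh stood at 6.644, against 11.26 to 11.94 in the other clones. In the same clone Pygl stood at 9.105, against 5.693 to 6.153, and Stra8 at 5.606, against 4.338 to 4.538. Gadd45g, a stress-response gene, stood there at 8.789, against 10.18 to 10.38, and Gbx2, a homeobox gene of naive pluripotency, at 6.678, against 8.542 to 8.879. These levels were not particular to that clone. In iPSC[GSCneonatal]#1, an iPSC clone made from GSC, Trh, Pygl, Stra8 and Gbx2 stood at 5.33, 9.65, 6.75 and 5.47. Gadd45g stood at 9.75 there, nearer the other gPSC clones. That iPSC clone differed at least 2-fold from neonatal clone 1 in 190 genes. In adult clone 2, Ifitm2, an interferon-induced membrane protein with close paralogs, stood at 12.92, against 12.02 to 12.1 in the other clones. All levels are normalised log2 signal averaged over the 2 arrays of a clone.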

How the results depend on the processing

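The 3507 calls between gPSC and GSC became 2185 when a change of at least 2-fold was also required, and ranged from 310 to 3651 as each line was left out in turn, the lowest without GSC[adult]. The neonatal count ranged from 1346 to 1556 and the adult count from 1243 to 1841 as each clone was left out. Each GSC line was left out too, which leaves 1 parent that is assumed to vary like the other lines. The number of calls in those fits is not given, as said above. The fit to single arrays with the replicate number as a block and the line as a random block called 4281 genes, and the fit with the line as a random block alone 4344. In the difference between origins these fits called 1 gene each, Tdgf1, by 1 of its 2 probes. The replicate numbers were not taken to pair samples, since 1 of the 15 correlations between lines' deviations lay under 0.1 (range 0.0835 to 0.41), though 12 of 12 arrays were closer to arrays of their own number. With the deposited values 2229 genes were at least 2-fold from the parent in all clones, against 1408. No background correction gave 3210 calls, the deposited values 3405, no detection filter 3233, every kept probe 5074, all 13 lines 3728, no origin term 4105, and array 1 or array 2 alone, chosen after seeing the data, 3364 and 3289. A fit with chip or scan position as a block was not run, since none is given. Causes were not tested. Of 116 called named genes, all kept their direction in these settings and 41 passed in each of them. Where lines were left out, the direction was nearly given by the calls, as said above.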

Other observations

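The X chromosome held a larger part of the strongest falls than of the strongest rises. Of 32 genes called at least 16-fold lower in gPSC, 15 were X-linked, against 2 of 37 called at least 16-fold higher. Over all 342 X-linked genes tested, 58 were called higher (17%) and 68 lower (19.9%), beside 15.1% and 20.5% over all genes, and the median difference was 0.171 log2. The count at 16-fold was made after the values were seen and has no test.

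The probe used for Tdgf1 stood at 10.33 and 9.25 in the adult gPSC clones and 4.28 and 4.39 in the neonatal ones, at 9.38, 10.22, 10.34 and 10.57 in the 4 iPSC clones made from GSC, at 9.21 in ESC and at 4.32 in the fibroblast-derived iPSC line. The other Tdgf1 probe was detected on both arrays of each of these lines, at 7.17 and 6.16 in the adult gPSC clones, 6.78 and 6.81 in the neonatal ones, 7.37 in ESC and 6.82 in the fibroblast-derived iPSC line. Tma7, read by 1 probe, stood at 7.10 and 7.06 in the adult gPSC clones and 4.57 and 4.65 in the neonatal ones, at 6.83 to 7.05 in the iPSC clones from GSC and at 4.60 in the fibroblast-derived iPSC line. Both genes lie on chromosome 9.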
